A study of Mus musculus with 140 samples.

Results

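The genes of oxidative phosphorylation were followed by day in mouse embryonic stem cells after knockdown of self-renewal factors or treatment with retinoic acid. The set held the genes whose symbols begin with Nduf, Uqcr, Atp5 or with Cox4 to Cox8, and Sdha, Sdhb, Sdhc, Sdhd, Cyc1 and Cycs. Only probe sets annotated to 1 gene were used, and the probe set with the highest mean signal stood for its gene. This gave 92 of the 18193 genes named on the MOE430A and MOE430B arrays, 85 on A and 7 on B. Of these, 90 passed the filter on low signals, as did 14558 genes of the series. Cox7c and Cox8b did not pass, and their brightest probe sets averaged 105 and 36.7 signal units. The set comprised 35 subunits of complex I, 8 complex I assembly factors, 4 subunits of complex II, 9 of complex III, 10 ubiquitous subunits of complex IV, 17 of ATP synthase, cytochrome c, and 8 isoforms known mainly from particular tissues or from hypoxia. By their symbols Ndufa4 was counted with complex I and Cox7a2l with complex IV, and the counts by complex rest on this grouping.

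All cells were of the male CCE line of strain 129/Sv. In 7 courses they carried an shRNA, directed at Esrrb, Tbx3, Tcl1, Nanog, Sox2, Oct4 (gene Pou5f1) or what the labels call Mm343880, and in the course used as the common control they carried the empty vector. These cells were kept in LIF, the cytokine that maintains self-renewal, at 1000 units/ml, and GFP-positive cells were sorted each day, beginning 48 hours after transduction, which was called day 0. The remaining course had no LIF and 5 µM retinoic acid, and the labels mention neither vector nor sorting for it. Retinoic acid, LIF withdrawal and any lack of a vector or of sorting therefore cannot be told apart in it. The Mm343880 and retinoic acid courses had samples on days 0 to 6 and the others on days 0 to 7, which made 70 RNA samples with 1 sample per course and day and no replicate transductions. A p-value here measures the spread of samples around smooth curves, which may be partly technical.

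Oxidative phosphorylation takes place at the inner mitochondrial membrane. Complex I (NADH dehydrogenase) and complex II (succinate dehydrogenase) pass electrons to ubiquinone, complex III passes them to cytochrome c, and complex IV reduces oxygen, while protons are pumped by complexes I, III and IV and drive ATP synthase. Most subunits are encoded in the nucleus, and factors such as NRF1, the ETS factor GABP, YY1 and the oestrogen-related receptors (ERR), the family to which Esrrb belongs, are known to bind many of their promoters. Pluripotent stem cells are known for a strong use of glycolysis, and differentiation is often accompanied by changes in mitochondrial activity.

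Signals were MAS5 intensities, with array medians of 236 to 383 on A and 64.5 to 128.5 on B. In the retinoic acid course they were 265 to 383 on A and 97.2 to 128.5 on B, against 245 to 331 on A and 80.9 to 105.6 on B in the empty vector course. Precision is limited by how many arrays there were. In each course with a measured target, that gene lay below the empty vector on all 8 days, by 6.55-fold on average for Nanog, 6.53-fold for Pou5f1, 4.92-fold for Sox2, 10.2-fold for Esrrb, 7.80-fold for Tbx3 and 3.40-fold for Tcl1. The ratio of the 3′ to the 5′ Gapdh control signal on A arrays was 0.792 to 0.854 in retinoic acid, 0.703 to 0.898 over the shRNA courses and 0.730 to 0.807 in the empty vector. Of 12 trophectoderm markers, 11 or 12 were higher in the Nanog, Oct4 and Sox2 courses on days 4 to 6, and 9 of 10 tested fibroblast markers were higher in retinoic acid, where their summed signal was 11680.1 to 60573, against 9968 to 12509.8 in the empty vector. Of 12 pluripotency markers, 11 were lower in retinoic acid, and their summed signal was 3468 to 98532 there, against 105222 to 127861 in the empty vector. For 12 endoderm markers the summed signal was 7771 to 62284 in retinoic acid, against 6472 to 10249 in the empty vector. In Nanog shRNA it was 5788 to 35765, and in the other shRNA courses it reached 16113.5 (Oct4) to 22431 (Sox2). The 12 trophectoderm markers summed to 4030 to 31228 in retinoic acid, against 3304 to 8179.7 in the empty vector. For 10 neural markers these sums were 4391 to 10722 and 8191.5 to 11263. The part of these shifts in the results was not tested. In bulk samples fewer cells of a type and less RNA per cell cannot be told apart.

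The promoter regions of the genes were searched for 4 motifs known from nuclear genes of mitochondria, on both strands of the 250 bases before and 50 bases after the RefSeq start site (build GRCm38.p6), which was given for 75 of the 92 genes. The NRF1 motif, GCGCA and GCGC with any 1 base between them, was in 17 of these (22.7%), against 10.0% of 11623 promoters of all genes tested and 5.19% of all 27025 promoters. The YY1 motif AAGATGGC was in 10 (13.3%, against 4.69% and 3.19%), the ETS motif CCGGAAG in 19 (25.3%, against 17.3% and 9.93%) and the ERR motif TNAAGGTCA in 3 (4%, against 1.08% and 1.43%). Matches in this window describe letters and not binding. The regions printed here are those of Uqcrc1, a complex III core protein lowered in several courses, with 2 NRF1 motifs (chr9:108936398-108936697, plus strand), Sdhd, a membrane anchor of complex II, with an NRF1, an ETS and an ERR motif (chr9:50603800-50604099, minus strand), Atp5g3, a c-subunit of ATP synthase, with an ERR and an NRF1 motif (chr2:73911277-73911576, minus strand), and Cox7a1, which differed most between the Esrrb and Oct4 courses, with none of the 4 motifs (chr7:30183921-30184220, plus strand). Each runs 5′ to 3′ along the gene's strand, and capitals mark motif matches on either strand.
Uqcrc1: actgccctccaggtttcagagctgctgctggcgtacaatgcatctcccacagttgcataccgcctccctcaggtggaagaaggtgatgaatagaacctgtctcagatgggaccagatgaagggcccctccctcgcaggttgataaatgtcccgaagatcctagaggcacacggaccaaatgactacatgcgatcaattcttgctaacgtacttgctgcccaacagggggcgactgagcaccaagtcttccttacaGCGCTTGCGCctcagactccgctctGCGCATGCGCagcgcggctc
Sdhd: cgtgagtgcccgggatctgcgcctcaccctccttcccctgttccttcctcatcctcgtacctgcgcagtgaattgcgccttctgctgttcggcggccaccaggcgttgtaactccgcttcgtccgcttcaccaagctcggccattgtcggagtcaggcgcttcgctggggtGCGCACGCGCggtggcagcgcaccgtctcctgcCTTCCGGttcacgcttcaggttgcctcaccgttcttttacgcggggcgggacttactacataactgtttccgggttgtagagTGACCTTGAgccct
Atp5g3: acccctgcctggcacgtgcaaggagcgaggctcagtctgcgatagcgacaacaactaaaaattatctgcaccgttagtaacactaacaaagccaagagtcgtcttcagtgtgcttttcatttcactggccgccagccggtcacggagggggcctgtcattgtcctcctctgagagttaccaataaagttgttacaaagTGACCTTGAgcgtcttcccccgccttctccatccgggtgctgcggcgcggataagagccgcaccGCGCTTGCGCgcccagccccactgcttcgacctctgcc
Cox7a1: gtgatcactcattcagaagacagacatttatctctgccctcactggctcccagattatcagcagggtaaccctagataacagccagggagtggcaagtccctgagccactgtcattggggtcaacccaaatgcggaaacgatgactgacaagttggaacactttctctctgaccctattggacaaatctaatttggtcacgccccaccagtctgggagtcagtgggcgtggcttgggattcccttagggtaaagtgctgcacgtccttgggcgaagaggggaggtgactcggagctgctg

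The first comparison set each course against the empty vector on the same day, taking the median of the 90 genes. On day 0 the median log2 difference was −0.18 in retinoic acid and lay between 0.03 (Oct4 shRNA) and 0.24 (Mm343880 shRNA) in the shRNA courses. In retinoic acid it was −0.36, −0.50, −0.65, −0.62, −0.50 and −0.81 on days 1 to 6, with 83 of the 90 genes below the empty vector on day 6. It was the lowest of the 8 courses on each of these days. On day 6 the median was −0.50 in Nanog shRNA, −0.50 in Sox2 shRNA, −0.40 in Esrrb shRNA, −0.25 in Tbx3 shRNA, −0.20 in Tcl1 shRNA, −0.14 in Oct4 shRNA and −0.12 in Mm343880 shRNA. The Nanog course was uneven from day to day, with 0.09 on day 5 between −0.27 on day 4 and −0.50 on day 6. The control moved as well. In the empty vector course the median change of the 90 genes from its own day 0 was 0.17 on day 1, 0.25 on day 4 and 0.33 on day 6, while the median over all genes moved by −0.10, −0.02 and −0.05. The plot of medians by day shows this order of the courses.

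**Figure D1:**
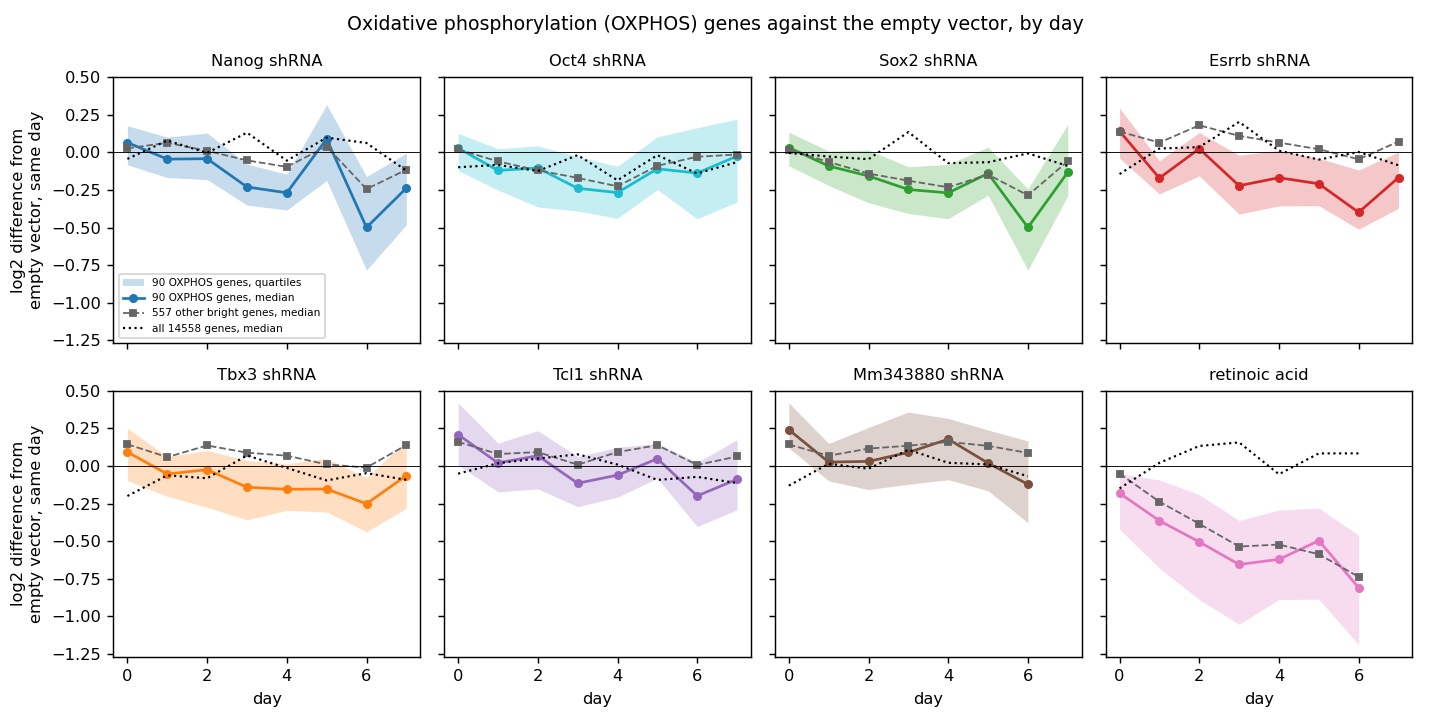
Median log2 difference from the empty vector on the same day (y axis) against day (x axis) in 8 courses. Filled circles and bands are the median and quartiles of 90 oxidative phosphorylation genes, squares the median of 557 other genes with a mean signal over 5000, and the dotted line the median of all 14558 genes. The retinoic acid median was −0.81 on day 6, and the lowest value in any shRNA course was −0.50.

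Genes of every complex were lower in the retinoic acid course than in the empty vector. For the late comparison, fitted curves were averaged over days 4, 5 and 6 in each course (limma, adjusted p under 0.05 over all 14558 genes), and all 8 such comparisons share the same empty vector samples. In retinoic acid 68 of the 90 genes were lower and 1 was higher, where 23.5% of all genes were lower and 27.5% higher. By complex, 26 of 35 complex I subunits were lower, 3 of 4 complex II subunits, 8 of 9 complex III subunits, all 9 tested ubiquitous complex IV subunits, 14 of 17 ATP synthase subunits, cytochrome c, 5 of 8 complex I assembly factors and 2 of 7 tested restricted isoforms. The median log2 difference was −1.22 for complex III, −0.82 for complex IV, −0.66 for ATP synthase, −0.62 for complex I and −0.60 for complex II, against 0.04 over all genes. Without the day 6 sample of the retinoic acid course 43 were lower and 0 higher.

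Signal level moved with this result. Most of these genes are bright, 55 of the 90 having a mean signal over 5000, and in retinoic acid 94.5% of these 55 were lower, with a median of −0.71, against 67.1% of the 557 other genes above that level, with a median of −0.60. Below that level 45.7% of the 35 dimmer oxidative phosphorylation genes were lower, against 21.5% of 13911 other genes. Quantile normalization moved the median of all genes in retinoic acid to −0.21 and scaling to the array median moved it to −0.30. The set then had 2 genes higher and 59 lower with a median of −0.45, and 0 higher and 78 lower with a median of −0.95. After quantile normalization 70.9% of the bright oxidative phosphorylation genes and 50.4% of the other bright genes were lower, with medians of −0.45 and −0.25. What part a general shift of bright signals has in the retinoic acid result was not tested.

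**Figure D2:**
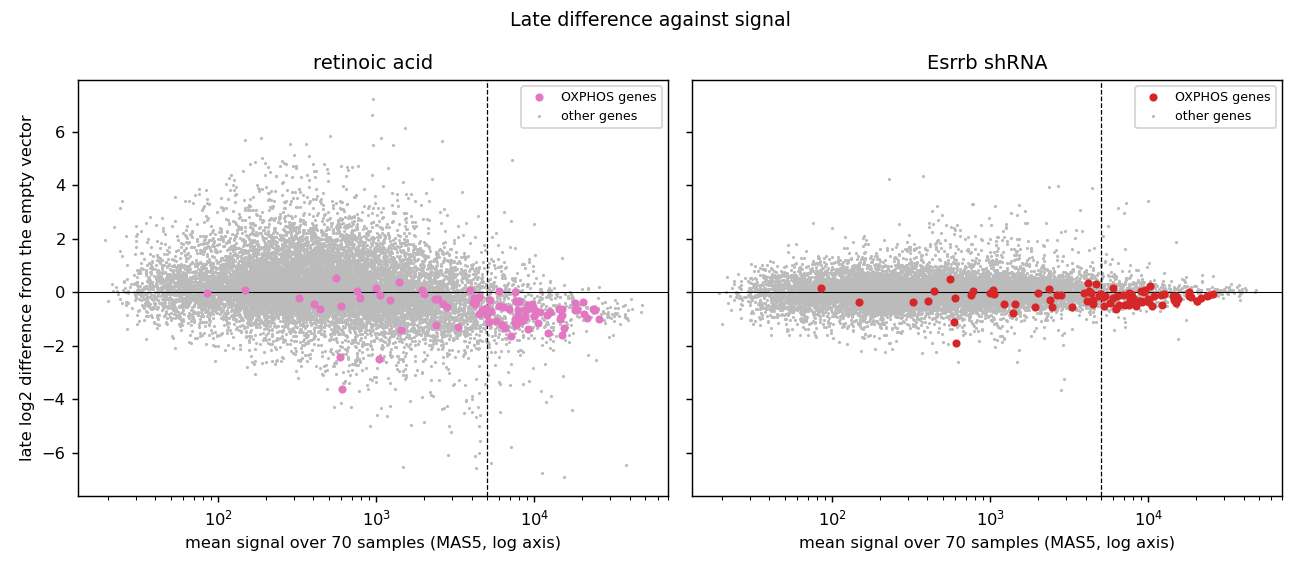
Late log2 difference from the empty vector (y axis) against mean signal over the 70 samples (x axis, log scale), one point per gene, for retinoic acid (left) and Esrrb shRNA (right). Coloured points are the 90 oxidative phosphorylation genes, grey points all others, and the dashed line marks a signal of 5000. In retinoic acid the bright genes of both kinds lie mostly below 0, with medians of −0.71 and −0.60.

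Of the catalytic core, Ndufv1, the NADH-binding subunit of complex I, changed most. Its signal on days 0 to 6 of retinoic acid was 5739.6, 3768, 3483, 3124, 2877, 2885 and 2789, and on days 0 to 7 of the empty vector it was 6057, 8283, 9184, 9039, 9060.5, 7847, 10907 and 9942. The courses were close on day 0 and did not overlap from day 1 on. The late difference was −1.62 ± 0.11 (SE; adjusted p = 8.2e-17) on the log2 scale, or 3.07-fold lower. Cyc1, the cytochrome c1 of complex III, had signals of 6564, 5731 and 5692 on days 4, 5 and 6 of retinoic acid, against 18006, 17001 and 20050.3 in the empty vector. It was 3.02-fold lower (log2 −1.60 ± 0.11 SE, adjusted p = 4.3e-16). Uqcrc1, a core protein of complex III, had signals of 9254, 7108, 5361, 5348, 5735, 5336 and 5211 on days 0 to 6 of retinoic acid, against 13787, 15028, 13047, 14382, 15369, 14663, 17725 and 16199.8 on days 0 to 7 of the empty vector, so that it was already lower on day 0. Its late signal was 2.88-fold below that of the empty vector (log2 −1.52 ± 0.12 SE, adjusted p = 8.9e-15, limma). The Rieske protein gene Uqcrfs1 and Uqcrb, which belong to the same complex, differed less. Their log2 differences were −0.42 ± 0.11 (SE, adjusted p = 0.0015, limma) and −0.38 ± 0.11 (SE, adjusted p = 0.0040, limma). Uqcrc2, the other core protein, did not pass the test (log2 0.05 ± 0.17 SE, adjusted p = 0.84, limma).

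In complex II the iron-sulfur subunit Sdhb had signals of 5989.8, 5484 and 5191 on days 4 to 6 of retinoic acid, against 11539, 9055 and 11363 in the empty vector. It was lower than the empty vector by 0.89 on the log2 scale (adjusted p = 4.2e-08, limma). Sdhd had 5378, 4783, 3116, 2840.2, 3311, 3071 and 2484 on days 0 to 6 of retinoic acid, against 3989, 5152, 5295, 5354, 4486, 4682, 4557 and 4140.1 on days 0 to 7 of the empty vector. It was above the empty vector on day 0 and below it from day 1, with a late difference of −0.65 ± 0.16 (SE; adjusted p = 7.9e-04). A second, dimmer probe set of Sdhd read 0.23. The flavoprotein Sdha did not pass, with 4584, 3906 and 4019.5 in retinoic acid and 4113, 3448 and 4327 in the empty vector on days 4 to 6 (log2 0.07 ± 0.12 SE, adjusted p = 0.65).

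In complex IV the late log2 difference was −0.82 for Cox4i1, −0.86 for Cox5a and −0.67 for Cox5b, which are nuclear subunits around the catalytic core, and −1.14 for Cox8a and −1.01 for Cox7a2, with adjusted p-values of 3.0e-05 or less (limma). Cox7a2 had signals of 13310.4, 13486 and 13271 on days 4 to 6 of retinoic acid, against 27685, 25313 and 29816 in the empty vector. Cytochrome c itself (Cycs) had 6760.0, 5387 and 5019, against 7645, 10380.5 and 8956, and a log2 difference of −0.70 ± 0.12 (SE; adjusted p = 5.8e-06). In ATP synthase the α and β subunits of the catalytic head, Atp5a1 and Atp5b, were lower by 0.61 and 0.66 on the log2 scale (adjusted p = 1.8e-05 and 2.5e-07, limma). Among its c-subunit genes the course differed. Atp5g1 had 9359, 9582, 3360.0, 3259.9, 5210.3, 4151 and 3953 on days 0 to 6 of retinoic acid, so its level on days 0 and 1 was near that of the empty vector (8432 and 10259) and it was lower from day 2, while Atp5g3 had late signals of 16472, 16266 and 14995, against 27311, 23714 and 25594, with a log2 difference of −0.67 ± 0.09 (SE; adjusted p = 1.8e-08).

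**Figure D3:**
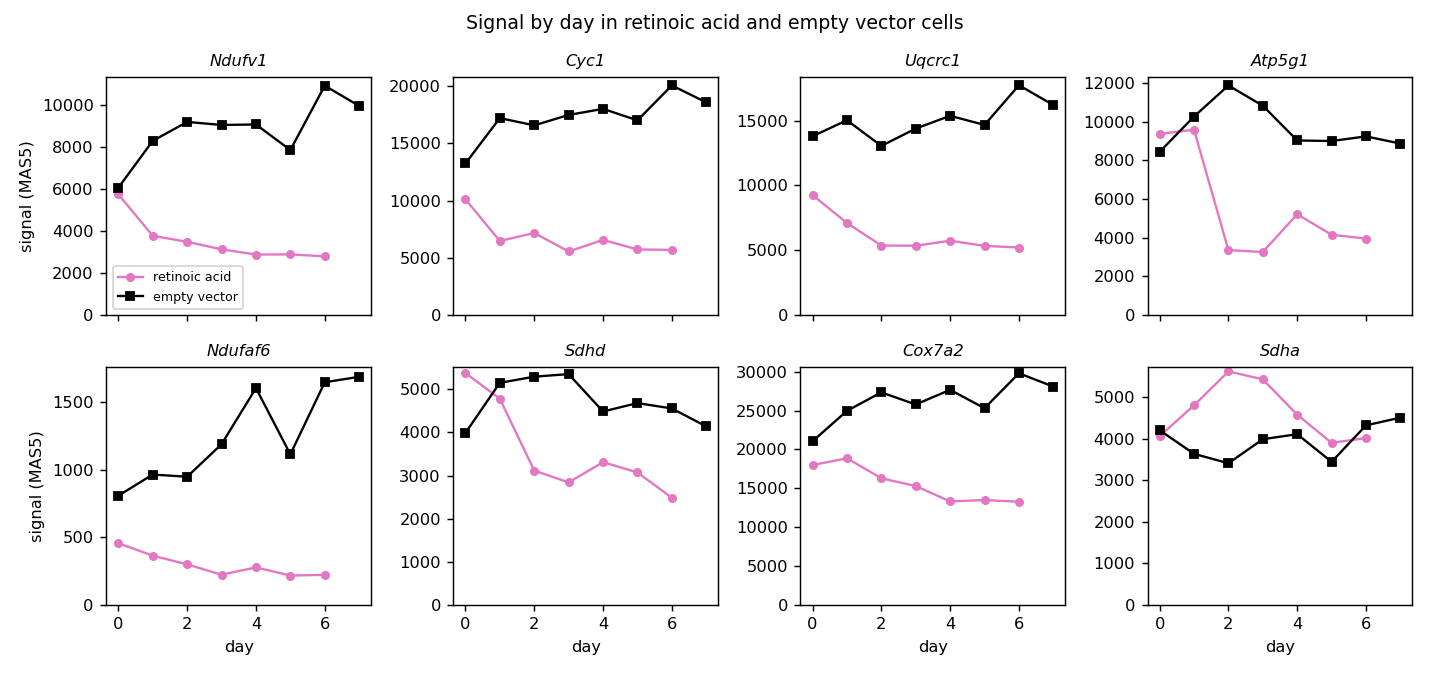
Signal (y axis, MAS5 units) by day (x axis) of 8 genes in retinoic acid (circles) and the empty vector (squares), 1 sample per point and no error bars. Ndufv1, Cyc1 and Uqcrc1 lay below the empty vector on every shared day and Atp5g1 from day 1, and Sdha did not pass the late test.

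Of the complex I assembly factors, Ndufaf6 and Ndufaf3 lay furthest below the empty vector in retinoic acid. Ndufaf6 had 456, 364, 299, 223, 277, 217 and 222 on days 0 to 6 of retinoic acid, against 808, 964, 948, 1189, 1604, 1114, 1648 and 1688 on days 0 to 7 of the empty vector, which itself rose. The late difference was −2.50 ± 0.16 (SE; adjusted p = 1.2e-17), or 5.65-fold lower, and Ndufaf3 was 2.65-fold lower (log2 −1.40 ± 0.14 SE, adjusted p = 9.2e-12). Ndufaf2, another assembly factor, was the only gene of the set that was higher, with 944, 717, 693, 505, 559.9, 474 and 498 on days 0 to 6 of retinoic acid, against 658, 421, 529, 267, 394, 416, 242 and 259 on days 0 to 7 of the empty vector. It was above the empty vector on every shared day, and its late values lay below its day 0 value in both courses. The late difference was 0.54 ± 0.20 (SE; adjusted p = 0.018), and the call was lost without day 6 of retinoic acid (adjusted p = 0.44, limma). Other subunits that did not pass included Ndufs1 and Ndufs4 of complex I and Atp5pb of the ATP synthase stalk, with log2 differences of 0.08, −0.07 and 0.01.

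Neighbouring pathways were read from lists of related genes, in retinoic acid, where 23.5% of all genes were lower and 27.5% higher. Of 23 assembly factors outside the set, 12 were lower and 2 higher in retinoic acid, among them Bcs1l, which inserts the Rieske protein (log2 −1.52), and the copper chaperone Cox17 (−1.20). Of 16 genes of pyruvate dehydrogenase and the citric acid cycle, 8 were lower, such as Idh3a (−1.15), and 4 were higher, among them citrate synthase Cs (0.69). Of 13 genes of other electron entry and coenzyme Q, 7 were lower, with Dhodh at −2.04, and 2 were higher, Etfa at 0.57 and Etfdh at 0.87, which carry electrons from fatty acid oxidation. Of 8 carriers, porins and ATPase regulators, 5 were lower and 2 higher. The ADP/ATP carriers moved in opposite directions, Slc25a5 at −1.61 and Slc25a4 at 0.79. All 14 measured genes of glycolysis and hypoxia were lower, with a median of −2.07, and their summed signal was 64104 to 140249 in retinoic acid, against 150171 to 257106 in the empty vector. Slc2a1, the glucose transporter, was at −2.68 and Ldha at −2.53. Of 18 regulators of mitochondrial biogenesis, 7 were lower and 3 higher. Nrf1 (−1.31), Pprc1 (−1.31), Esrra (−0.74) and Esrrb (−5.21) were lower, and Gabpa (1.18), Ppargc1b (1.12) and Yy1 (0.68) were higher.

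Late differences from the empty vector were smaller in the courses of the core factors than in retinoic acid. In the empty vector itself the median change of the 90 genes from days 0 and 1 to days 4 to 6 was 0.12. On days 4 to 6, 25 of the 90 genes were lower and 4 higher in Nanog shRNA (all genes 10% and 12%), 23 were lower and 2 higher in Oct4 shRNA (all genes 10.7% and 6.66%), and 35 were lower and 0 higher in Sox2 shRNA (all genes 12.2% and 12.1%; 44 at an unadjusted p under 0.05 in either direction). The medians were −0.18, −0.16 and −0.25, against 0.04, −0.10 and −0.03 over all genes. Of the 55 bright genes of the set 27.3%, 25.5% and 49.1% were lower in these 3 courses, against 23.9%, 20.5% and 36.6% of the other bright genes. After quantile normalization the shares were 21.8%, 10.9% and 14.5%, against 22.4%, 13.8% and 21.9%. The members' shares then lay below those of the other bright genes in all 3 courses. Their medians were −0.14, −0.03 and −0.12, against −0.02, −0.003 and −0.02 for the other bright genes. Of the 35 dimmer genes of the set 28.6%, 25.7% and 22.9% were lower, against 9.33%, 10.2% and 11.1% of 13911 other genes. With quantile normalization these were 31.4%, 17.1% and 25.7%, against 12.8%, 8.85% and 12.9%. Whether these shares differ was not tested. The summed signal of the 12 trophectoderm markers was 4054 to 148437 in Nanog shRNA, 10737 to 102458 in Oct4 shRNA and 8055 to 111239 in Sox2 shRNA, against 3304 to 8179.7 in the empty vector, and its part in the results was not tested. After quantile normalization 23 were lower and 4 higher in Nanog shRNA, 12 lower and 9 higher in Oct4 shRNA, and 17 lower and 3 higher in Sox2 shRNA. Without day 6 of the empty vector the lower and higher counts were 15 and 3, 14 and 2, and 20 and 0, without day 4 of the empty vector they were 14 and 2 in Nanog shRNA and 12 and 1 in Oct4 shRNA, without their own day 6 they were 14 and 5 in Nanog shRNA and 22 and 1 in Sox2 shRNA, and without day 5 of Oct4 shRNA 10 and 1.

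Of the 4 complex II genes, 3 were lower in Nanog shRNA, 3 in Oct4 shRNA and 2 in Sox2 shRNA. Sdhb had 6141, 6698 and 4812 on days 4 to 6 of Nanog shRNA, 7669, 7606 and 7909 in Oct4 shRNA and 7608, 6800.1 and 5359 in Sox2 shRNA, against 11539, 9055 and 11363 in the empty vector, with log2 differences of −0.81 ± 0.12 (SE; adjusted p = 1.9e-06), −0.43 ± 0.12 (SE; adjusted p = 0.0097) and −0.62 ± 0.12 (SE; adjusted p = 1.1e-04). The Nanog course was low in Sdhb throughout, at 5669.8 and 5922 on days 0 and 1 against 7371 and 9213. Sdhc, the other membrane anchor, was at −0.61, −0.63 and −0.77 (adjusted p = 0.0092, 0.0088 and 9.3e-04, limma), and its second probe set read −0.75, −0.37 and −0.67 as mean daily differences. The Sox2 call of Sdhc was lost without day 5 of that course (adjusted p = 0.090, limma). The assembly factor Ndufaf6 was at −0.88 in Sox2 shRNA (adjusted p = 2.4e-05, limma). In Sox2 shRNA 9 of 17 ATP synthase subunits were lower, against 3 in Nanog shRNA and 4 in Oct4 shRNA, and 6 of 9 complex III subunits, against 3 and 1. Whether these counts differ between the courses was not tested. Atp5a1 and Atp5b were lower in all 3, at −0.32 and −0.29 in Nanog shRNA, −0.54 and −0.29 in Oct4 shRNA and −0.38 and −0.54 in Sox2 shRNA. In Oct4 shRNA the assembly factor Ndufaf5 and the accessory subunit Ndufs4 were lower, by 0.73 (SE 0.14) and 0.72 (SE 0.12) on the log2 scale, and Ndufb7 and Ndufa8 were higher, by 0.49 (SE 0.12) and 0.29 (SE 0.10). Ndufs4 had signals of 2293, 1656, 1410.2, 1305, 1393, 1143, 1119.8 and 1182 on days 0 to 7 of Oct4 shRNA, against 2260.1, 2171, 2117, 2041, 2006, 1695, 2662 and 2478 in the empty vector. Oct4 shRNA was slightly above the empty vector on day 0 and below it from day 1 on. The 3 other, dimmer probe sets of Ndufs4 read −0.36, −0.18 and 0.40. The Ndufa8 call was lost without day 4 of the empty vector (adjusted p = 0.14, limma). In Nanog shRNA Ndufaf2, Cycs and Ndufa3 were higher, at 0.94, 0.36 and 0.36 on the log2 scale, and Cycs did not keep its call without day 5 of that course (adjusted p = 0.48, limma).

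Subunit genes were also lower than in the empty vector in the Esrrb and Tbx3 courses. The empty vector's own median change of 0.12 enters these comparisons too. In Tcl1 shRNA 7.78% of the 90 genes were lower and 4.44% higher, and the median was near that of all genes. In Esrrb shRNA 20 genes were lower and 1 higher (all genes 5.3% and 7.44%), in Tbx3 shRNA 15 lower and 2 higher (5.69% and 6.24%), and in Tcl1 shRNA 7 lower and 4 higher (4.05% and 5.05%). The medians were −0.21, −0.17 and −0.07, against −0.02, −0.06 and −0.06 over all genes. Of the 55 bright genes of the set 23.6%, 20% and 7.27% were lower, against 7.90%, 6.10% and 3.23% of the other bright genes. After quantile normalization the shares were 36.4%, 27.3% and 7.27%, against 9.16%, 7.90% and 5.03%, and the counts were 27 lower and 0 higher in Esrrb shRNA, 19 and 2 in Tbx3 shRNA and 7 and 2 in Tcl1 shRNA. With this scaling the lower count of Esrrb shRNA was above those of Nanog, Oct4 and Sox2 shRNA, and that of Tbx3 shRNA above those of Oct4 and Sox2 shRNA, so the order of these courses depended on the scaling. Scaling to the array median also gave 7 and 2 in Tcl1 shRNA. Of the 12 trophectoderm markers 9 were higher in Esrrb shRNA, 7 in Tbx3 shRNA and 7 in Tcl1 shRNA and none lower, and their summed signal was 3349.8 to 91399.9, 2691 to 41473 and 3839 to 30209, against 3304 to 8179.7 in the empty vector. Of 10 tested fibroblast markers 5 were higher and 1 lower in Esrrb shRNA, 3 and 1 in Tbx3 shRNA and 1 and 1 in Tcl1 shRNA, with the summed signal of all 12 at 11166 to 38982, 9181 to 21986 and 12570.4 to 28369.8, against 9968 to 12509.8 in the empty vector. The part of both lists in the results was not tested. Without day 6 of the empty vector the lower and higher counts were 12 and 0 in Esrrb shRNA, 9 and 1 in Tbx3 shRNA and 1 and 3 in Tcl1 shRNA, without its day 4 they were 8 and 1 in Tbx3 shRNA and 1 and 2 in Tcl1 shRNA, and without day 5 of the course itself they were 9 and 0, 7 and 1, and 4 and 1.

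Subunits of complexes I and III made up most of the genes called lower in Esrrb shRNA, with 10 of 35 and 5 of 9. The counts were 2 of 17 in ATP synthase and 1 of 9 in complex IV. In the whole set 20 of 90 were lower (22.2%), and complex I alone held 35 of the 90. Whether these counts differ between complexes was not tested. Uqcrq, a small subunit of complex III, had 4876, 5174 and 4628 on days 4 to 6 of Esrrb shRNA, 5422, 5132 and 5140.4 in Tbx3 shRNA and 7563, 7446 and 7099.6 in Tcl1 shRNA, against 7481, 7791 and 7509 in the empty vector. Esrrb and Tbx3 shRNA lay below the empty vector on all 3 days, and the log2 differences were −0.61 ± 0.12 (SE; adjusted p = 1.6e-04), −0.53 ± 0.12 (SE; adjusted p = 0.0012) and −0.04 ± 0.12 (SE; adjusted p = 0.88). Uqcr10 and Uqcr11 of the same complex were at −0.57 and −0.48 in Esrrb shRNA and −0.57 and −0.51 in Tbx3 shRNA, and all 4 values passed. Uqcrc1 had 11078, 10548 and 11971 in Esrrb shRNA on days 4 to 6, against 15369, 14663 and 17725 in the empty vector (log2 −0.48 ± 0.12 SE, adjusted p = 0.0034). In complex I, Ndufs1, which carries iron-sulfur clusters, was lower in both Esrrb and Tbx3 shRNA (−0.57 and −0.65), Ndufs7 was at −0.40 and −0.61, and Ndufa5 at −0.77 ± 0.23 (SE; adjusted p = 0.018) in Esrrb shRNA. Without day 5 of the empty vector the calls of Ndufa5 in Esrrb shRNA and Ndufs1 in Tbx3 shRNA were lost (adjusted p = 0.077 and 0.055, limma). Ndufv1 passed as lower in each of the 8 courses, at −0.45, −0.36, −0.38, −0.47, −0.34, −0.39, −0.44 and −1.62 in the order Nanog, Oct4, Sox2, Esrrb, Tbx3, Tcl1 and Mm343880 shRNA and retinoic acid. The 8 comparisons share the empty vector, whose own Ndufv1 signal was 6057 on day 0 and 10907 on day 6. The 3 genes with an ERR motif in the promoter were not called in Esrrb shRNA, with log2 differences of 0.30 ± 0.16 (SE; adjusted p = 0.25) for Sdhd, −0.09 ± 0.09 (SE; adjusted p = 0.57) for Atp5g3 and −0.37 ± 0.34 (SE; adjusted p = 0.56) for Ndufb4, a dim probe set.

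Ndufa10, an accessory subunit of complex I, went the other way. It had 5528, 5785, 5754, 5413, 6578, 5663, 5553 and 5943 on days 0 to 7 of Tcl1 shRNA, 5168, 5344, 5732, 5736, 5542, 4741, 6055 and 5811 in Tbx3 shRNA and 4553, 4085, 5308, 4465, 4676, 4818, 4937 and 5103 in Esrrb shRNA, against 3011, 3063, 3340.2, 3579.8, 4372, 3434, 3519 and 3471 in the empty vector. All 3 courses lay above the empty vector on all 8 days, day 0 included. The late values were 0.64 ± 0.11 (SE; adjusted p = 1.2e-04), 0.51 ± 0.11 (SE; adjusted p = 0.0014) and 0.35 ± 0.11 (SE; adjusted p = 0.031), and the Esrrb call was lost without day 5 of the empty vector (adjusted p = 0.28, limma). In Mm343880 shRNA Ndufa10 was at 0.34 ± 0.11 (SE; adjusted p = 0.036). Ndufaf2 was higher in Tcl1 and Tbx3 shRNA too, at 0.91 and 0.60, and both calls were lost without day 5 of the course itself (adjusted p = 0.063 and 0.45, limma). In Tcl1 shRNA Ndufa13 was also higher, at 0.37, and Sdhc and Ndufb5 were lower, at −0.56 and −0.54. These calls were lost without day 4, 5 and 6 of that course, respectively (adjusted p = 0.19, 0.15 and 0.21, limma).

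**Figure D4:**
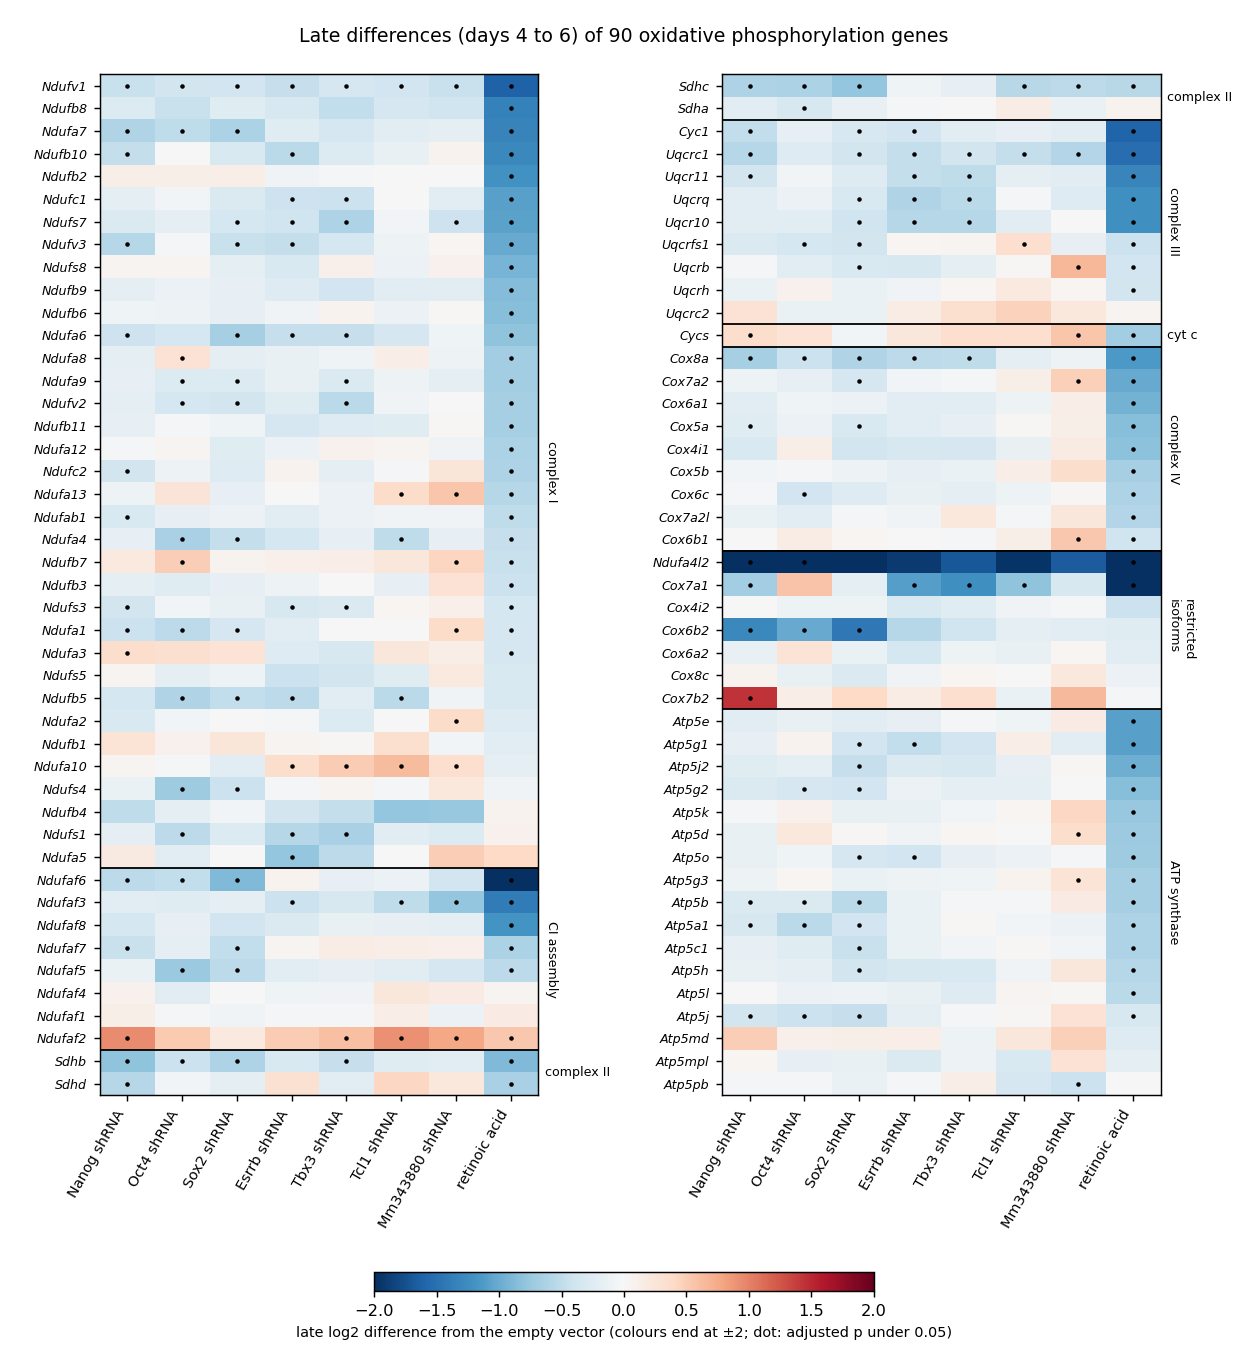
Late log2 difference from the empty vector (colour, days 4 to 6) of 90 genes (rows, by complex and then by their retinoic acid value) in 8 courses (columns). Dots mark an adjusted p under 0.05. The retinoic acid column is mostly blue, with 68 dots on lower genes, and Ndufv1 has a dot in all 8 columns.

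Direct comparisons between courses do not use the empty vector. Between Esrrb and Tbx3 shRNA 0 of the 90 genes differed at an adjusted p under 0.05 (limma; all genes 1.9% higher and 0.742% lower), 5 had an unadjusted p under 0.05, and the differences ran from −0.41 to 0.52 with a median of −0.07. Without day 2 or day 3 of Esrrb shRNA 1 gene was higher. Between Esrrb and Oct4 shRNA 8 genes were higher and 11 lower in Esrrb shRNA (all genes 10.9% and 4.82%), and after quantile normalization 3 were higher and 26 lower, and 2 and 11 after scaling to the array median. The largest difference was in Cox7a1 (−1.67 ± 0.23 SE, adjusted p = 3.1e-07), followed in the same direction by Ndufa3 (−0.57), Atp5g1 (−0.56), Ndufb10 (−0.54) and Uqcrq (−0.49), and Ndufs4 (0.68 ± 0.12 SE, adjusted p = 4.1e-05), Ndufaf6 (0.57) and Sdhc (0.54) were higher in Esrrb shRNA. Without day 5 of Esrrb shRNA 6 were higher and 6 lower, without day 5 of Oct4 shRNA 3 and 5, and without its day 6 5 and 7. Between retinoic acid and Oct4 shRNA 56 genes were lower and 5 higher in retinoic acid (all genes 19.5% and 29.1%), and 37 and 1 without day 6 of retinoic acid. Cyc1 was lower by 1.42 on the log2 scale and Ndufv1 was at −1.26, while Sdha, Ndufs1, Ndufa5, Ndufs4 and Cox6b2 were higher in retinoic acid (0.40, 0.60, 0.62, 0.65 and 0.75).

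Lists of neighbouring pathways were also counted in the shRNA courses. Of 14 glycolysis and hypoxia genes, 7 were lower in Nanog shRNA, 5 lower and 1 higher in Oct4 shRNA, 10 lower in Sox2 shRNA, 2 lower and 1 higher in Esrrb shRNA, 1 lower in Tbx3 shRNA, none in Tcl1 shRNA and 1 each way in Mm343880 shRNA. Of 23 assembly factors outside the set, 4, 6, 4, 3, 6, 1 and 3 were lower in these courses, in the same order. Only the lower counts are given for this list. Of all genes 10%, 10.7%, 12.2%, 5.3%, 5.69%, 4.05% and 7.19% were lower in these courses. Whether the counts of either list differ from such shares was not tested.

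Mm343880 shRNA was the only one of the 8 courses with more genes higher (12) than lower (6), where 7.55% of all genes were higher and 7.19% lower. The split depended on scaling, with 6 higher and 10 lower after quantile normalization and 7 and 5 after scaling to the array median, and without day 6 of this course 0 were higher and 3 lower. Of the 55 bright genes of the set 16.4% were higher (median 0.02), against 29.3% of the other bright genes (median 0.14), and after quantile normalization 7.27%, against 13.8%. Whether these shares differ was not tested. Of the 12 trophectoderm markers 8 were higher and 1 lower, with a summed signal of 3761 to 38921 in Mm343880 shRNA, against 3304 to 8179.7 in the empty vector, and 2 of 10 tested fibroblast markers were higher, with sums of 10201 to 38400.6, against 9968 to 12509.8. Uqcrb, the ubiquinone-binding protein of complex III, had 24752, 25262, 23666, 34681, 35746, 28892 and 35328 on days 0 to 6 of Mm343880 shRNA, against 20154, 22584, 19717, 20253, 20597, 19925, 23283 and 25970.4 on days 0 to 7 of the empty vector, and was above it on every shared day. The ratio of the 3′ to the 5′ Gapdh signal on A arrays was 0.773, 0.815 and 0.798 on days 0 to 2 of Mm343880 shRNA and 0.865, 0.889, 0.898 and 0.874 on days 3 to 6, against 0.730 to 0.807 over all days of the empty vector. Uqcrb was likewise higher on days 3 to 6 of this course than on its days 0 to 2. The part of the marker sums and of this ratio in the results was not tested. The late difference of Uqcrb was 0.66 ± 0.11 (SE; adjusted p = 3.4e-05), and a second, dimmer probe set read 0.30. Cox6b1 of complex IV had 28613, 22331 and 26298 on days 4 to 6, against 18539, 16228 and 18954, and Cox7a2 had 42932, 34348 and 36044, against 27685, 25313 and 29816 (log2 0.54 and 0.48). Both were above the empty vector on all 3 days. Without day 6 of this course Uqcrb had an adjusted p of 0.73 (limma). The largest called rise was that of Ndufaf2, at 0.78 on the log2 scale (adjusted p = 0.0045, limma), and its call too was lost without day 6 (adjusted p = 0.15, limma). Cycs was at 0.56 ± 0.12 (SE; adjusted p = 0.0012) and Ndufa13 at 0.56 ± 0.12 (SE; adjusted p = 9.6e-04). Ndufaf3 (−0.78 ± 0.14 SE, adjusted p = 7.7e-05), Uqcrc1 (−0.58) and Sdhc (−0.52) were lower. The Sdhc call was lost without day 5 of this course (adjusted p = 0.24), and the Ndufa13 call without its day 6 (adjusted p = 0.53, both limma).

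Changes within a course compared days 4 to 6 with days 0 and 1 of the same course. In retinoic acid 34 genes fell and 2 rose (all genes 14.9% and 18.6%), with a median of −0.25, against 0.11 over all genes. Without its day 0 or its day 1 sample 17 fell and 1 rose, and without day 6 5 fell and 0 rose. Cox7a1 (−1.02), Atp5g1 (−0.98), Sdhd (−0.74) and Ndufv1 (−0.72) fell, and Cox6b2 (0.84) and Cox7a2l (0.47) rose. In the shRNA courses few passed. The median changes were −0.06 in Nanog, 0.03 in Oct4, −0.10 in Sox2 and −0.10 in Esrrb shRNA. For Tbx3, Tcl1 and Mm343880 shRNA they were −0.06, −0.06 and −0.02, against 0.12 in the empty vector. In Nanog shRNA 5 fell and 1 rose (all genes 4.53% and 6.35%), with Cox6b2 at −1.39, and after scaling to the array median 7 fell and 0 rose. In Oct4 shRNA 2 fell and 5 rose (4.05% and 4.35%), with Ndufs4 at −0.66 and Atp5d at 0.54, and after quantile normalization 1 fell and 8 rose, and after scaling to the array median 2 and 1. In Sox2 shRNA Ndufaf7 and Ndufs4 fell and 0 rose (3.2% and 4.53%; 2 and 1 after quantile normalization), in Esrrb shRNA Uqcrc1 alone fell and 0 rose (1.63% and 5.04%), and in Mm343880 shRNA 1 fell and 5 rose (3.59% and 5.65%), which was 2 and 2 after quantile normalization and 1 and 1 after scaling to the array median. In the empty vector Ndufaf6 alone rose, by 0.69, and 0 fell (0.536% and 0.268%). No gene passed in Tbx3 shRNA (1.04% of all genes fell and 3.7% rose) or Tcl1 shRNA (0.556% and 1.72%), where 10 and 6 had an unadjusted p under 0.05 (limma). The counts were 0 in Nanog, Oct4, Sox2, Esrrb and Mm343880 shRNA and the empty vector without their own day 0. Other single days moved them too. In Oct4 shRNA 1 fell and 2 rose without day 2 or day 4, and 1 fell and 1 rose without day 5 or day 6. In Mm343880 shRNA 0 fell and 2 rose without day 1, 0 and 3 without day 4, 1 and 9 without day 5, and 1 and 0 without day 6. In Sox2 shRNA 1 fell without day 2, 3 or 4 and 0 without day 5. The Esrrb call was lost without any one of days 2 to 6, and that of the empty vector without day 1, 2, 3, 4 or 6.

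Several restricted isoforms differed between courses. Cox7a1, a complex IV isoform known mainly from heart and skeletal muscle, had 517, 228, 229, 291, 298, 294, 314 and 403 on days 0 to 7 of Esrrb shRNA, 438, 227, 233, 213, 345, 217, 288 and 505 in Tbx3 shRNA and 216, 263, 305, 252, 88.1, 74.8 and 92.2 on days 0 to 6 of retinoic acid, against 696, 777, 634, 564, 665, 626, 1155 and 1025 in the empty vector. All 3 courses lay below the empty vector on every shared day. Oct4 shRNA had 1067, 1097, 1172, 1014, 1038, 1067, 1466 and 1347 and lay above it on every day. The late differences were −1.10 ± 0.23 (SE; adjusted p = 5.1e-04) for Esrrb shRNA, −1.23 ± 0.23 (SE; adjusted p = 1.6e-04) for Tbx3 shRNA, −0.80 ± 0.23 (SE; adjusted p = 0.018) for Tcl1 shRNA, −0.70 ± 0.23 (SE; adjusted p = 0.022) for Nanog shRNA and −2.42 ± 0.23 (SE; adjusted p = 3.3e-12) for retinoic acid, while 0.58 ± 0.23 (SE; adjusted p = 0.076) for Oct4 shRNA did not pass. The Tcl1 call was lost without day 6 of the empty vector (adjusted p = 0.090, limma). Its ubiquitous partner Cox7a2 was at −0.05 in Esrrb shRNA and −0.02 in Tbx3 shRNA, neither of which passed. Of 8 tested heart and muscle markers, 3 were higher and 0 lower in Esrrb shRNA, 2 higher and 0 lower in Tbx3 shRNA, and 0 higher and 1 lower in retinoic acid.

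Cox6b2, a complex IV isoform known from testis, was lower in the courses of the core factors. It had 4014, 2396, 2646, 1926, 2434, 1206, 506 and 981 on days 0 to 7 of Nanog shRNA, 1572, 1591, 1058, 1496, 1822, 1191, 1404 and 2864 in Oct4 shRNA and 1494, 2211, 2036, 1744, 1921, 897, 759 and 1131 in Sox2 shRNA, against 2689, 2962, 3431, 3371, 3999, 2182, 3359.5 and 5066 in the empty vector. Oct4 and Sox2 shRNA were below the empty vector on all 8 days, and Nanog shRNA was above it on day 0 and below it on days 1 to 7. The late differences were −1.29 ± 0.27 (SE; adjusted p = 2.6e-04), −1.004 ± 0.27 (SE; adjusted p = 0.0051) and −1.43 ± 0.27 (SE; adjusted p = 4.7e-05). In Esrrb, Tbx3, Tcl1 and Mm343880 shRNA and retinoic acid they were −0.57, −0.41, −0.20, −0.22 and −0.25 and did not pass. The Oct4 call was lost without day 5 of that course (adjusted p = 0.077, limma). The ubiquitous Cox6b1 was at 0.00, 0.15 and 0.04 in Nanog, Oct4 and Sox2 shRNA, and none passed.

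Ndufa4l2, known as a hypoxia-induced relative of Ndufa4, varied widely between days. It had 52.5, 928, 408, 51.0, 172, 106 and 129.7 on days 0 to 6 of retinoic acid, 1057, 327, 505, 328, 148, 129, 66.9 and 211 on days 0 to 7 of Nanog shRNA and 944, 129, 309, 399.9, 279, 63.4, 322 and 536 of Oct4 shRNA, against 1671, 456, 522, 999, 1571, 1137, 1719 and 2686 in the empty vector. All 3 courses lay below the empty vector on days 4 to 6. The late log2 differences were −3.62 ± 0.92 (SE; adjusted p = 8.7e-04), −3.43 ± 0.91 (SE; adjusted p = 0.0044) and −2.84 ± 0.91 (SE; adjusted p = 0.023), and those of the other 5 courses, from −2.27 in Sox2 shRNA to −1.67 in Mm343880 shRNA, did not pass. The retinoic acid call was lost without its day 6 (adjusted p = 0.39) and the Oct4 call without its day 5 (adjusted p = 0.25, both limma). The hypoxia-linked Cox4i2 had late differences from −0.43 to 0.01 over the 8 courses, and neither it nor Cox6a2 and Cox8c passed in any. Cox7b2, a dim probe set with a mean signal of 85.1, passed as higher in Nanog shRNA (1.45 ± 0.38 SE, adjusted p = 0.0043), and its call was lost without day 5 of that course, where it had 356 (adjusted p = 0.15, limma).

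**Figure D5:**
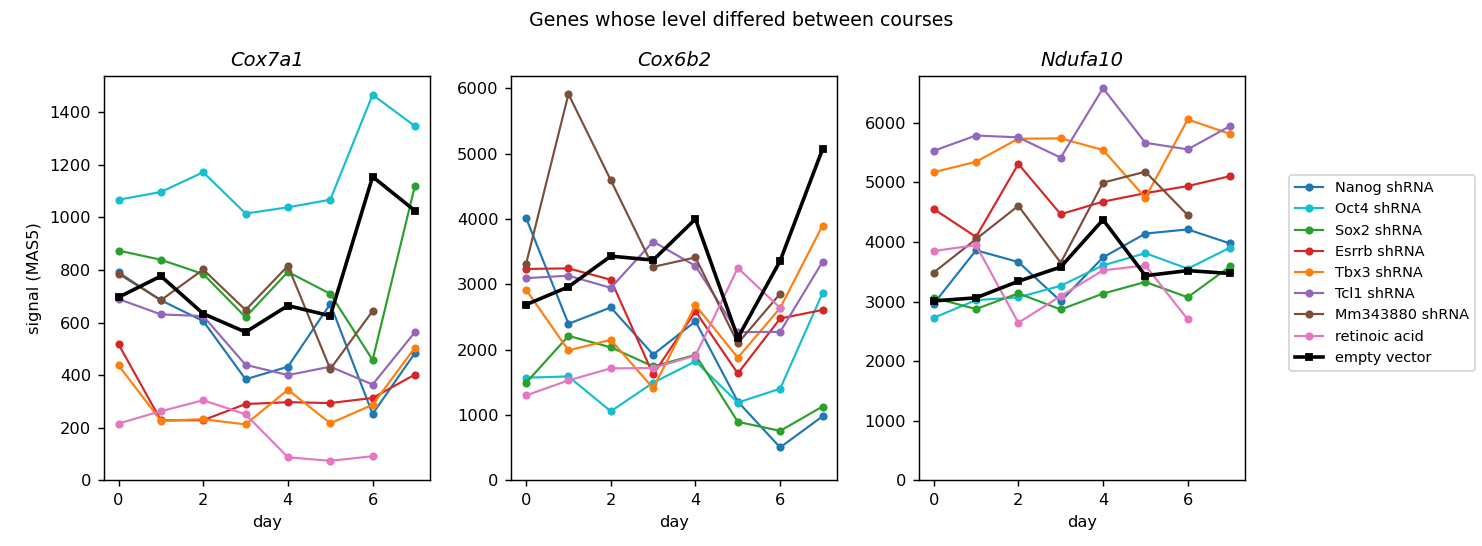
Signal (y axis, MAS5 units) by day (x axis) of Cox7a1, Cox6b2 and Ndufa10 in all 9 courses, 1 sample per point and no error bars. Cox7a1 was below the empty vector (black squares) in Esrrb and Tbx3 shRNA and retinoic acid and above it in Oct4 shRNA, Cox6b2 was low in Oct4 and Sox2 shRNA, and Ndufa10 was high in Tcl1 and Tbx3 shRNA from day 0.

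Over all 8 courses together, 82 of the 90 genes had some late difference from the empty vector (moderated F-test of limma), against 66.4% of all genes. The smallest adjusted p-values were those of Ndufaf6 (1.7e-17), Cyc1 (6.8e-15), Ndufv1 (1.3e-14), Cox7a1 (2.2e-13), Cox7a2 (1.1e-12), Uqcrc1 (1.4e-12), Cox5a (3.1e-12) and Ndufb10 (5.9e-12).

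For 52 of the 92 genes the arrays carried other probe sets. Among called genes, another probe set moved in the same direction as the main one for 59 of 67 such probe sets in retinoic acid, 18 of 22 in Nanog shRNA, 17 of 21 in Oct4 shRNA, 29 of 31 in Sox2 shRNA, 13 of 13 in Esrrb shRNA, 12 of 12 in Tbx3 shRNA, 3 of 4 in Tcl1 shRNA and 10 of 13 in Mm343880 shRNA. Probe sets that moved the opposite way by over 0.3 on the log2 scale numbered 5 in retinoic acid. There were 2 in Nanog, 2 in Oct4 and 1 in Mm343880 shRNA, and 0 in the other courses. The other 2 probe sets of Ndufv1 read −1.21 and −1.43 in retinoic acid, where the main one read −1.67 as a mean of daily differences. In Mm343880 shRNA they read 0.04 and −0.21, where the main one read −0.44, and in Tcl1 shRNA 0.10 and −0.24, against −0.43, so the smaller Ndufv1 differences there were not shared by all its probe sets.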

How the data were processed

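Total RNA of each of 70 samples was hybridised to 1 MOE430A and 1 MOE430B array. The deposited values were linear signal intensities from MAS5, per the submitters' processing notes, which give no version. In the files the trimmed mean of 100 control probe sets was 2500 on every array. Of 45265 probe sets, 35041 were annotated to 1 gene, 936 to several and 9160 to none, and 128 were controls. Signals were tested as log2(signal + pseudocount), with pseudocounts of 63.1 on A and 21.8 on B, so fold changes of dim genes are understated. A gene was tested where its signal exceeded the table's median on at least 3 of the 70 arrays of its design. Each course was fitted by a spline in day with 3 degrees of freedom in limma 3.58.1 (R 4.3.3), over all 14558 genes, with Benjamini-Hochberg adjustment. Late differences averaged days 4 to 6. Named genes were, per late comparison, the 3 largest called rises and falls, the 8 smallest F-test p-values, core subunits, isoforms with their partners, and up to 2 genes per list. All others were chosen after their values were seen. The genes and lists were chosen with earlier results of these data known. Bright genes (mean signal over 5000) were defined after seeing the data. Alternatives were another pseudocount, no filter, quantile or median scaling, averaging a gene's probe sets, no spline, only the courses compared, leaving out each sample and, added after seeing the data, day as a replicate block. The script was tested on simulated data. A Dppa4 shRNA course and day 7 of the Mm343880 and retinoic acid courses were not analysed here.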

Additional observations from a re-analysis of the deposited data

Results flagged for a closer look

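Within a course, single samples were tested for standing apart from the rest by Dixon's test at the 95% level. Of 117 groups tested, 14 had such a sample. Among replicates chance alone flags about 1 in 20. The days of a course are ordered and are not replicates, so this rate need not hold here, and a trend can set a day apart. The median log2 level of the 90 genes in Nanog shRNA was lowest on day 6, at 12.35. In retinoic acid, day 0 was above the later days for Ndufv1 (5739.6 signal units) and Cyc1 (10108.7), and day 1 stood apart for Ndufa4l2 (927.9). Ndufa4l2 also stood apart on day 0 of Nanog shRNA (1056.8). Ndufs4 was highest on day 0 in Oct4 (2293), Sox2 (2512.0), Tbx3 (2711) and Tcl1 shRNA (2411). Cox6b2 stood apart on day 7 of Oct4 shRNA (2864), Ndufa10 on day 4 of Tcl1 shRNA (6579) and of the empty vector (4372), Ndufaf2 on day 4 of Oct4 shRNA (352) and Uqcrb on day 7 of Tbx3 shRNA (24447).

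Direct tests also found courses whose differences from the empty vector were unequal. Esrrb and Oct4 shRNA differed in 19 of the 90 genes, among them Cox7a1 (log2 −1.67) and Ndufs4 (log2 0.68, Esrrb minus Oct4). Retinoic acid and Oct4 shRNA differed in 61, among them Cox7a1 (log2 −3.00) and Cox6b2 (log2 0.75, retinoic acid minus Oct4).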

How the results depend on the processing

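Of 471 recomputed counts of called genes for 21 comparisons, 386 were within 1.5 times the value reported. For 39 named genes and comparisons, 341 of 390 recomputed results kept their direction and side of the threshold, 49 lost the call and 0 changed sign. These 390 include only the leave-one-out fits with the lowest and highest estimate, so they understate how often calls were lost. Over all leave-one-out fits, losses ran from 0 of 16 (such as Sdhb in Nanog shRNA) to 13 of 16 (Ndufa13 in Tcl1 shRNA). Sdhc lost its call in 8 of 16 fits in Tcl1 shRNA and 8 of 15 in Mm343880 shRNA. The cause of the changes listed here was not tested. Without a filter the change within a course was called for 0 genes in Esrrb, 4 in Oct4 and 1 in Sox2 shRNA. Quantile normalization gave 20 late calls in Sox2 shRNA, 1 change in Tbx3 shRNA and 29 calls between Esrrb and Oct4 shRNA. Scaling to the array median gave 16 late calls in Oct4 shRNA, and changes of 2 genes in Mm343880, 3 in Oct4 and 1 in Tbx3 shRNA and 0 in the empty vector. The mean of all probe sets gave 3 changes in Oct4 shRNA. Without a spline there were 10 late calls in Mm343880 and 6 in Tcl1 shRNA, and changes of 0 genes in Esrrb, 2 in Mm343880, 3 in Nanog, 2 in Oct4 and 0 in Sox2 shRNA and 0 in the empty vector. With only the courses compared there were 19 late calls in Nanog shRNA, changes of 0 genes in Esrrb, 0 in Mm343880, 3 in Nanog, 0 in Sox2 and 1 in Tbx3 shRNA, 20 in retinoic acid and 0 in the empty vector, and 1 call between Esrrb and Tbx3 shRNA. Leaving out 1 sample at a time gave 71 to 85 genes in the F-test. Late calls ranged from 43 to 69 in retinoic acid, 16 to 33 in Nanog, 11 to 27 in Oct4, 20 to 38 in Sox2, 9 to 22 in Esrrb, 8 to 18 in Tbx3, 3 to 11 in Tcl1 and 3 to 18 in Mm343880 shRNA. Changes ranged from 5 to 34 in retinoic acid, 0 to 9 in Nanog, 0 to 7 in Oct4, 0 to 3 in Sox2, 0 to 1 in Esrrb, 0 to 0 in Tbx3, 0 to 0 in Tcl1 and 0 to 10 in Mm343880 shRNA and 0 to 1 in the empty vector. Direct calls ranged from 8 to 20 (Esrrb and Oct4), 0 to 1 (Esrrb and Tbx3) and 38 to 62 (retinoic acid and Oct4). A replicate block, with a term per day shared by all courses, was chosen after seeing the data. The labels do not say that samples of 1 day were handled together, and the deviations of same-day samples from the curves of their courses correlated by over 0.1 in 30 of 273 pairs of samples (−0.19 to 0.19). The block gave 1 call between Esrrb and Tbx3 shRNA, and the other 11 counts stayed within 1.5 times. Changes within a course cannot be estimated with it. Dim probe sets, such as those of Cox7b2, Cox7c and Cox8b, limit what can be read for those genes.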
